A study of Mus musculus with 59 samples.

Results

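The 37 genes described here encode the enzymes that break glucose down to pyruvate and lactate, the transporters and carriers that move glucose, lactate and pyruvate across membranes, the pyruvate dehydrogenase complex with its kinases, and the enzymes of the pentose phosphate pathway. They were taken by name: every row of the raw count table whose symbol stood on a fixed list of 37 symbols, in all tissues and genotypes. No measured value entered that rule, but the list was set with earlier results of these data known. All 37 were found, on 38 of the 57180 gene rows, because Aldoa stands on 2 rows. The row of Aldoa used here (ENSMUSG00000030695) holds 99.86% of the counts under that symbol. All 37 passed the filter on low counts, against 21351 genes in all.

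Poly(A) RNA was sequenced from cortex and hippocampus of 30 male mice that differed in 2 nuclear genes for mitochondrial proteins. Mrpl40 encodes a large-subunit protein of the mitochondrial ribosome, and Slc25a1 encodes the citrate carrier of the inner mitochondrial membrane. Cortex was sequenced from 9 animals labelled Mrpl40 +/+, Slc25a1 +/+ (wild type), 7 labelled Mrpl40 +/+, Slc25a1 -/+ (Slc25a1 heterozygous), 7 labelled Mrpl40 -/+, Slc25a1 +/+ (Mrpl40 heterozygous) and 7 labelled Mrpl40 -/+, Slc25a1 -/+ (double heterozygous). Hippocampus was sequenced from 8 wild-type animals and from 7 of each other genotype, so that 29 animals gave both tissues. The labels state no age, strain or kind of allele, and no treatment. Both tissues are mixtures of cells, and in such bulk samples fewer cells of a type and less RNA per cell cannot be told apart.

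As background, glycolysis turns glucose into pyruvate in the cytosol. Hexokinase traps glucose as glucose 6-phosphate, phosphofructokinase sets much of the rate, and fructose 2,6-bisphosphate, made by the PFKFB enzymes, activates phosphofructokinase. Pyruvate is either reduced to lactate by lactate dehydrogenase or carried into mitochondria by a heterodimer of MPC1 and MPC2 and oxidized by pyruvate dehydrogenase, which the PDK kinases switch off by phosphorylation. The pentose phosphate pathway branches off at glucose 6-phosphate and supplies NADPH and ribose. In the brain astrocytes are held to be the more glycolytic cells and neurons the more oxidative ones, with lactate passing between them through monocarboxylate transporters. Citrate that leaves mitochondria through SLC25A1 inhibits phosphofructokinase in the test tube.

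Library totals ran from 21443017 to 32120906 counts. Levels are given as CPM, the counts of a gene relative to those of its library, scaled with the TMM method of edgeR over all 59 libraries. A gene is said to have risen or fallen only where edgeR's quasi-likelihood test gave a Benjamini-Hochberg adjusted p below 0.05 over all genes tested. The targeted genes were examined first. In 10 cortex libraries labelled Slc25a1 -/+ Slc25a1 lay between 10.8 and 13.1 CPM, and in 14 labelled Slc25a1 +/+ between 21.8 and 26.3 CPM. The cortex libraries of 6 animals went against their label. Of these, 4 libraries labelled Slc25a1 -/+ lay between 21.0 and 24.3 CPM, and 2 labelled wild type at 12.1 and 12.7 CPM, and the hippocampus libraries of the same animals did likewise. Mrpl40 did not separate its labels, with a cortex median of 17.6 CPM in 14 libraries labelled Mrpl40 -/+ and 17.8 CPM in 16 labelled Mrpl40 +/+. Groups are therefore called by their labels, and each count of genes called was repeated without the 6 animals. The tissue labels went with their markers: the summed level of 6 cortex markers lay between 757 and 1068 CPM in cortex and between 166 and 263 CPM in hippocampus. In 4 hippocampus libraries (animals 8, 12, 22 and 30) markers of another brain region or of cortex were high, and each hippocampal count was repeated without them.

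The 37 messages covered a wide range of abundance. Compared per kilobase of exon, so that genes of different length can be ranked, Aldoa (aldolase A) stood first in wild-type cortex at 437 CPM per kb. Ldhb (lactate dehydrogenase B) followed at 256 CPM per kb, then Pkm (pyruvate kinase) at 212, Eno2 (the neuronal enolase) at 186 and Tpi1 (triosephosphate isomerase) at 185 CPM per kb. In wild-type hippocampus the same 5 genes led, with Aldoa at 485 CPM per kb, but Ldhb, at 168 CPM per kb, stood behind Pkm and Tpi1. Hk2 (hexokinase 2) was last in both tissues, at 0.698 CPM per kb in cortex and 1.51 in hippocampus. Several rows are uncertain because other genes carry the same sequence. Of all 100-base words in the longest annotated transcript of Gapdh, 78% occur unchanged in transcripts of 86 other genes, and Gapdh read only 18.7 ± 1.69 CPM in wild-type cortex (SD, n = 9). The share of such words was 67% for Pgk1, 59% for Eno1 and 39.7% for Pgam1, and at most 23.9% for each of the other 33 genes. Reads of these 4 genes could have been split among copies or dropped in counting, so their levels are uncertain.

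The first comparison asked how the pathway differs between hippocampus and cortex of the same animals. In wild type, 27 of the 37 genes passed the test, 13 higher and 14 lower in hippocampus. Over all 21354 genes tested the share called was 60.6%, with 30.4% higher and 30.1% lower, and among these 37 it was 73%. Their median log2 fold change was -0.08, against 0.01 for all genes. The wild-type groups did not overlap for 14 of the 37 genes (37.8%), against 26.5% of all genes. The plot of the tissue difference shows that the genes did not move as a block: in wild type, in 7 of the 10 groups of steps at least 1 gene rose and at least 1 fell. The exceptions were the first steps and the pyruvate dehydrogenase subunits, where no gene fell, and lactate dehydrogenase, where none rose.

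**Figure D1:**
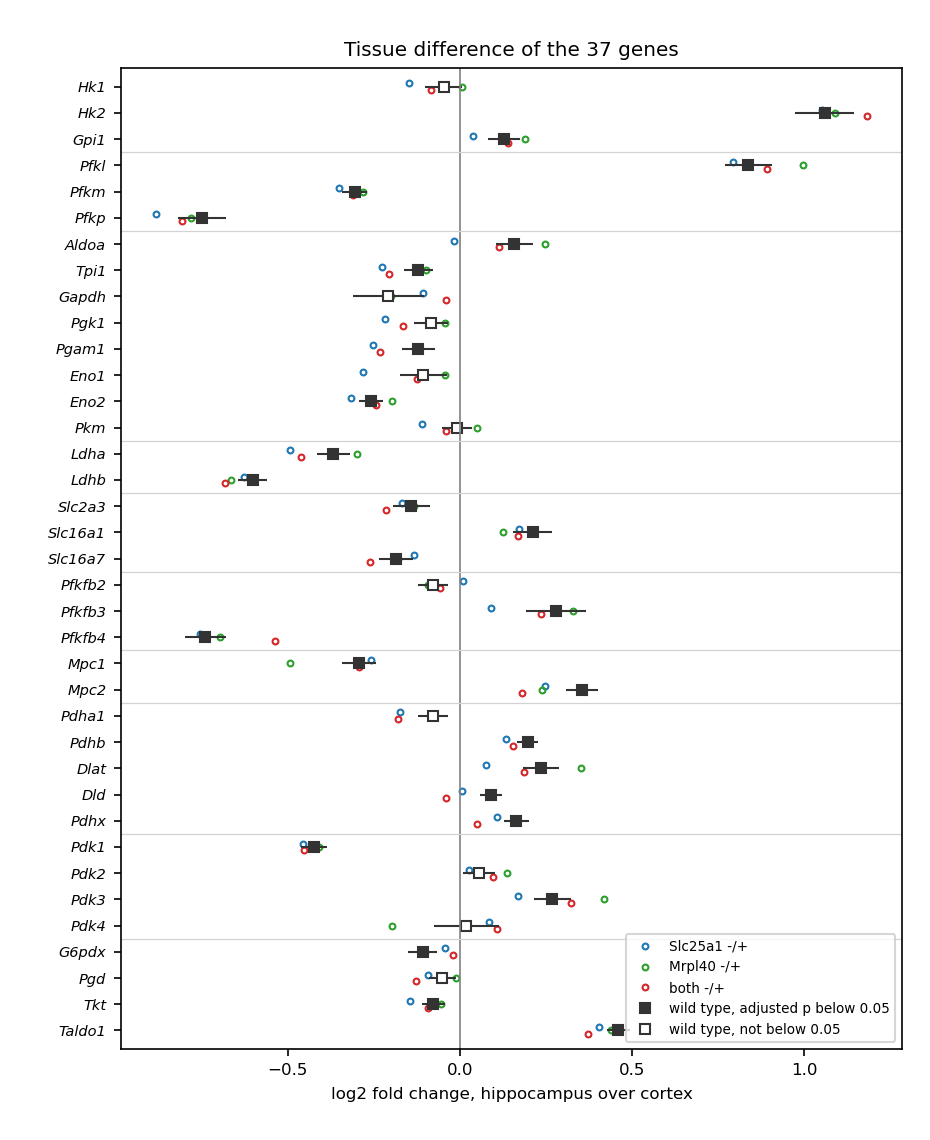
Log2 fold change of hippocampus over cortex for the 37 genes, ordered by step of the pathway (grey lines separate the steps). Squares are wild type with the standard error as a bar, filled where the adjusted p was below 0.05, and open circles are the 3 heterozygous genotypes. Hk2 and Pfkl lie farthest to the right and Pfkp, Pfkfb4 and Ldhb farthest to the left in wild type.

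At the first step, Hk2 rose. HK2 is the hexokinase isoform best known from muscle, fat and proliferating cells, while Hk1 encodes the main brain hexokinase. Hk2 ran from 3.23 to 4.72 CPM (median 4.33) in 9 wild-type cortex libraries and from 7.65 to 11.5 CPM (median 8.81) in 8 hippocampus libraries. The groups did not overlap and all 8 animals were higher in hippocampus. The fold was 2.08 (log2 fold change 1.06 ± 0.09 SE, adjusted p = 6.16e-13). Hk1 gave a log2 fold change of -0.05 ± 0.05 and did not pass. Gpi1 (glucose 6-phosphate isomerase) rose by a log2 fold change of 0.13 ± 0.05.

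All 3 phosphofructokinase genes changed, in opposite directions. Pfkl encodes the liver-type subunit, Pfkm the muscle type and Pfkp the platelet type, and all are known to assemble in brain. Pfkl ran from 151 to 179 CPM (median 154) in wild-type cortex and from 209 to 332 CPM (median 293) in hippocampus. The groups stood apart, and the fold was 1.79 (log2 fold change 0.84 ± 0.07, adjusted p = 7.07e-12). Pfkp went the other way, from 341 to 401 CPM (median 372) in cortex and from 203 to 254 CPM (median 221) in hippocampus, with a log2 fold change of -0.75 ± 0.07 (adjusted p = 8.33e-11). Pfkm, the most abundant of the 3, lay between 505 and 547 CPM (median 510) in cortex and between 403 and 452 CPM (median 417) in hippocampus, and its log2 fold change was -0.31 ± 0.04 (adjusted p = 4.18e-09). Every one of the 8 wild-type pairs went the same way for each of the 3 genes. In the wild-type hippocampus library of animal 8, 1 of the 4 named above, Pfkl was lowest at 209 CPM and Pfkp highest at 254 CPM. Without those 4 libraries the log2 fold changes were 0.89 for Pfkl and -0.80 for Pfkp.

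Among the PFKFB enzymes, which make and break fructose 2,6-bisphosphate, Pfkfb4 fell and Pfkfb3 rose. Pfkfb4 lay between 20.6 and 25.3 CPM (median 21.7) in wild-type cortex and between 11.7 and 15.4 CPM (median 13.1) in hippocampus. The groups stood apart, with a fold of 0.599 (log2 fold change -0.74 ± 0.06, adjusted p = 4.38e-13). Pfkfb3, whose product is known for a high ratio of kinase to phosphatase activity, had a log2 fold change of 0.28 ± 0.09 (adjusted p = 0.00692), higher in 8 of 8 animals. Pfkfb2 gave -0.08 ± 0.04 and did not pass.

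The 250 bases before the annotated start of the 4 genes with the largest tissue differences are shown because 2 of them rose and 2 fell. They come from RefSeq (build GRCm38.p6) and are written 5′ to 3′ on the gene's strand. Capitals mark each ACGTG or GCGTG, the core letters of the hypoxia response element, or their reverse complements. The windows are chr6:82774455-82774704 (minus strand) for Hk2, chr10:78009808-78010057 (minus strand) for Pfkl, chr13:6648772-6649021 (minus strand) for Pfkp and chr9:108991652-108991901 (plus strand) for Pfkfb4.
Hk2: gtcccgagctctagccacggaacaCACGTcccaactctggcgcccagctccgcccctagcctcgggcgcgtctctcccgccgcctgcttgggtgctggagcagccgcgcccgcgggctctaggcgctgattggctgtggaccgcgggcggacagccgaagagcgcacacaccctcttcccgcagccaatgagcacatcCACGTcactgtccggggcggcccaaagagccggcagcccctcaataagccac
Pfkl: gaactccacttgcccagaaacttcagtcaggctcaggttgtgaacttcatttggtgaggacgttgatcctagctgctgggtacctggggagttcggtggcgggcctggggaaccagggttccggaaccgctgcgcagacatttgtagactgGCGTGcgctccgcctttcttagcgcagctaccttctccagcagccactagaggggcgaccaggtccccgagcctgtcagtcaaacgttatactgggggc
Pfkp: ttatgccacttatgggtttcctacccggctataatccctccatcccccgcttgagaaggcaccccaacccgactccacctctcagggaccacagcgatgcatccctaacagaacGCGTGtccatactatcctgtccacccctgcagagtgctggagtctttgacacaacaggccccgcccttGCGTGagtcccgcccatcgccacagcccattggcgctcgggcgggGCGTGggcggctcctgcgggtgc
Pfkfb4: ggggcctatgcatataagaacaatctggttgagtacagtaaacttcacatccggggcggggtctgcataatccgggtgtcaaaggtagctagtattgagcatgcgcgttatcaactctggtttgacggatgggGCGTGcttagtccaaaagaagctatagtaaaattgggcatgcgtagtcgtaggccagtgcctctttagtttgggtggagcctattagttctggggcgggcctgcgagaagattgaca
Both genes that rose and both that fell hold at least 1 core: 2 of the form ACGTG in Hk2, and of the form GCGTG 1 in Pfkl, 3 in Pfkp and 1 in Pfkfb4. A window was found for 35 of the 37 genes. ACGTG, on either strand, stands in 32.7% of their 52 windows against 16.6% of all 32817 windows, and GCGTG in 55.8% against 28.1%. The E-box CACGTG, which contains ACGTG, stands in 11.5% against 6.02%. These windows also hold more G and C, with a median of 60.8% against 52.4%, and the part of base composition in the counts was not tested.

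Of the 8 genes from aldolase to pyruvate kinase, 1 rose, 3 fell and 4 did not pass in wild type. Aldoa rose (log2 fold change 0.16 ± 0.05, adjusted p = 0.0125). Eno2, which is restricted largely to neurons, fell from a range of 805 to 946 CPM in cortex to 676 to 765 CPM in hippocampus, without overlap (log2 fold change -0.26 ± 0.04, adjusted p = 1.05e-07). Tpi1 and Pgam1 (phosphoglycerate mutase) both fell by 0.12 on the log2 scale. Gapdh (-0.21 ± 0.10), Pgk1 (-0.08 ± 0.05), Eno1 (-0.11 ± 0.07) and Pkm (-0.01 ± 0.04) did not pass. Gapdh, Pgk1, Eno1 and also Pgam1, which passed, are the rows of uncertain counting.

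Both lactate dehydrogenase genes fell. Ldhb, which encodes the subunit that is associated with lactate use, ran from 383 to 442 CPM (median 392) in wild-type cortex and from 230 to 291 CPM (median 267) in hippocampus. Its fold was 0.658 (log2 fold change -0.60 ± 0.04, adjusted p = 8.81e-15), and all 8 animals were lower in hippocampus. Ldha, the subunit associated with lactate production, ran from 211 to 247 CPM (median 232) in cortex and from 167 to 191 CPM (median 176) in hippocampus (log2 fold change -0.37 ± 0.05, adjusted p = 3.19e-08). Neither gene's groups overlapped. Among transporters, Slc16a1 (monocarboxylate transporter MCT1, found in glia and vessels) rose by a log2 fold change of 0.21 ± 0.06. Slc16a7 (MCT2, the neuronal transporter) had a log2 fold change of -0.19 ± 0.05 and Slc2a3 (GLUT3, the neuronal glucose transporter) one of -0.14 ± 0.05, and both passed.

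**Figure D2:**
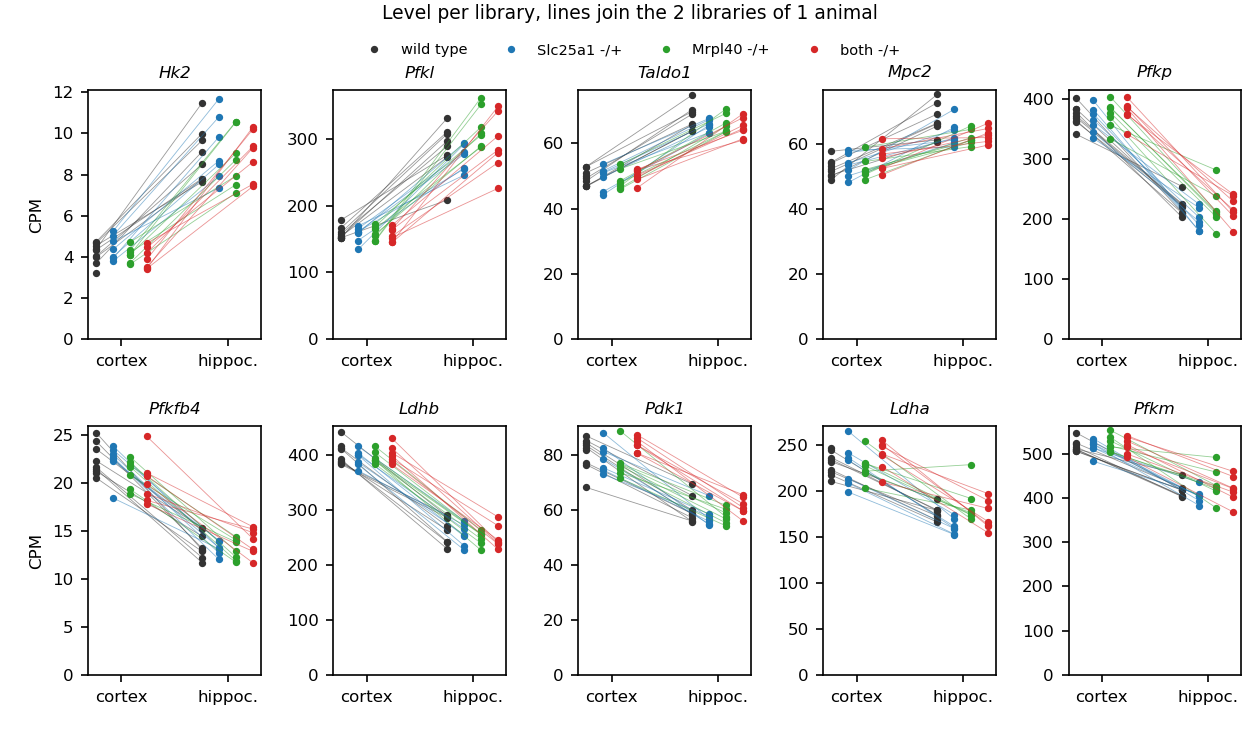
CPM in each library for the 10 genes with the largest wild-type tissue differences, with cortex on the left and hippocampus on the right of each panel, colours for the 4 labelled genotypes and thin lines joining the libraries of 1 animal. The y axes start at 0. Hk2, Pfkl, Taldo1 and Mpc2 slope upward and the other 6 slope downward in nearly every animal, and the genotypes lie over each other within a tissue.

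At the entry of pyruvate into mitochondria the 2 carrier subunits changed in opposite directions. Mpc2 ran from 49.0 to 57.8 CPM (median 52.5) in wild-type cortex and from 60.5 to 75.3 CPM (median 66.4) in hippocampus (log2 fold change 0.35 ± 0.05, adjusted p = 2.44e-08). Mpc1 ran from 32.1 to 40.0 CPM (median 34.4) in cortex and from 27.0 to 32.0 CPM (median 28.5) in hippocampus (log2 fold change -0.29 ± 0.05, adjusted p = 4.27e-06). Both differences held in 8 of 8 animals. The ratio of Mpc2 CPM to Mpc1 CPM lay between 1.26 and 2.02 in the 30 cortex libraries and between 2.01 and 2.79 in the 29 hippocampus libraries, which nearly separates the tissues. Of the words of Mpc1, 19.7% are shared with other genes, and none of Mpc2.

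**Figure D3:**
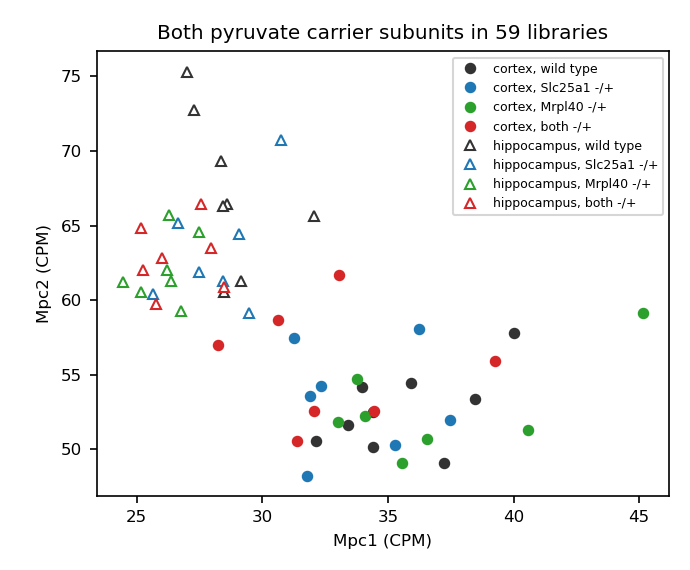
Mpc1 CPM (x axis) against Mpc2 CPM (y axis) in all 59 libraries, with filled circles for cortex, open triangles for hippocampus and colours for the labelled genotypes. Hippocampus libraries sit at the upper left and cortex libraries at the lower right, and the genotypes mix within each tissue.

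In wild type, subunits of pyruvate dehydrogenase were modestly higher in hippocampus, 4 of 5 past the test. Dlat (the E2 acetyltransferase) had a log2 fold change of 0.23 ± 0.05, Pdhb (E1 beta) 0.20 ± 0.03, Pdhx (the E3-binding protein) 0.16 ± 0.04 and Dld (E3) 0.09 ± 0.03. The E1 alpha gene Pdha1 gave -0.08 ± 0.04 and did not pass. In Slc25a1 heterozygous and in double heterozygous animals 2 subunits rose and 1 fell. Over the 4 genotypes the log2 fold change of Dld ran from -0.04 to 0.09. That of Pdha1 ran from -0.18 to -0.08 and passed in 2 of them. Of the 4 kinases that inactivate the complex, Pdk1 fell and Pdk3 rose. Pdk1 ran from 68.2 to 86.9 CPM (median 82.7) in wild-type cortex and from 55.8 to 69.5 CPM (median 58.5) in hippocampus (log2 fold change -0.42 ± 0.04, adjusted p = 8.55e-12). The groups overlapped by 1 library on each side, and all 8 pairs were lower in hippocampus. Pdk3 had a log2 fold change of 0.27 ± 0.05. Pdk2, the most abundant kinase message per kilobase of exon, gave 0.05 ± 0.05 and Pdk4 gave 0.02 ± 0.09, and neither passed.

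In the pentose phosphate pathway the gene of the sugar-rearranging enzyme transaldolase rose. Taldo1 ran from 46.8 to 52.9 CPM (median 49.3) in wild-type cortex and from 63.8 to 74.9 CPM (median 67.5) in hippocampus, without overlap (log2 fold change 0.46 ± 0.03, adjusted p = 4.26e-14). Its partner transketolase (Tkt) fell slightly, with a log2 fold change of -0.08 ± 0.03 (adjusted p = 0.0442). G6pdx, the entry enzyme, had -0.11 ± 0.04 (adjusted p = 0.0236), and Pgd gave -0.05 ± 0.04 and did not pass.

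Shares within each isozyme group, per kilobase of exon, describe the same values from another side and carry no test. In wild type the Pfkl share of the phosphofructokinase message was 11.5% ± 0.645 (SD, n = 9) in cortex and 23.3% ± 2.38 (SD, n = 8) in hippocampus. Pfkm held 75.0% and 67.8%, and Pfkp 13.5% and 8.97%. Without the scaling to length Pfkp held 35.6% and 23.9%, Pfkm 49.3% and 45.1% and Pfkl 15.1% and 30.9%, so the levels of these shares depend on that scaling, while Pfkl stood below Pfkp in cortex and above it in hippocampus either way. Among the hexokinases Hk2 held 1.29% ± 0.16 in cortex and 2.84% ± 0.404 in hippocampus. Ldhb held 78.7% ± 1.15 and 75.9% ± 1.92 of the lactate dehydrogenase message, and Eno2 77.4% ± 1.28 and 75.5% ± 1.42 of the Eno1 and Eno2 sum. The Eno2 share is uncertain, because 59% of the words of Eno1 are shared with other genes and 0% of those of Eno2. Reads of Eno1 lost in counting would raise it. For the PFKFB genes, Pfkfb4 held 33.8% in cortex and 22.2% in hippocampus, and Pfkfb3 31.3% and 41.3%. Slc16a1 held 64.3% ± 1.36 of the Slc16a1 and Slc16a7 sum in cortex and 70.5% ± 2.64 in hippocampus. Unscaled, that share was 40.3% and 47.2%, so which transporter message is the more abundant depends on that scaling.

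**Figure D4:**
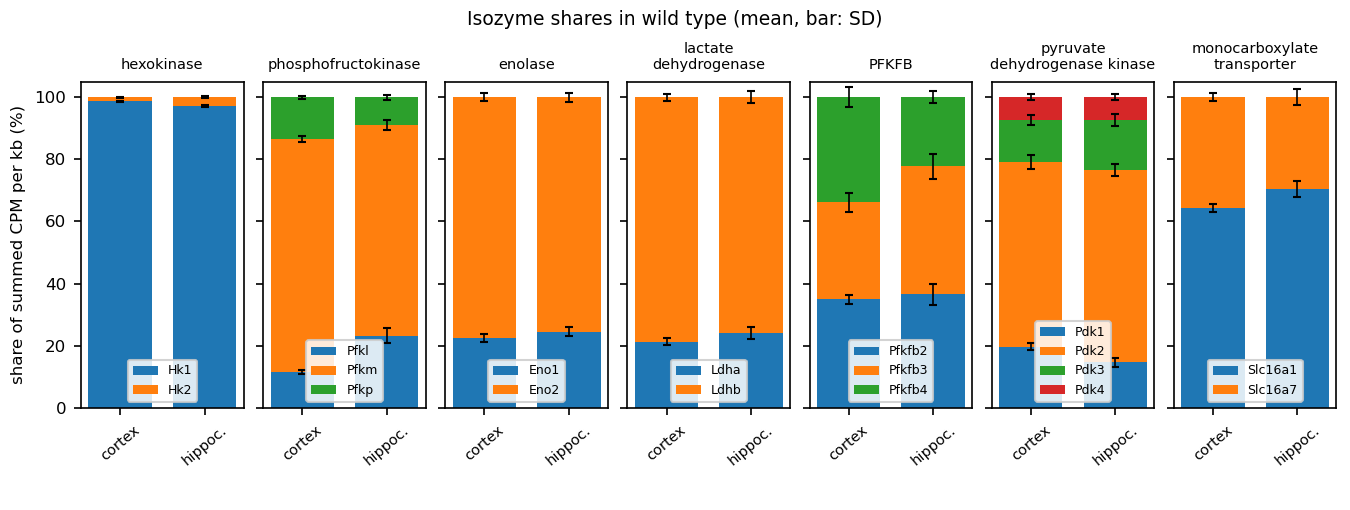
Share of each isozyme in the summed CPM per kilobase of its group (y axis, percent) in wild-type cortex and hippocampus, as stacked bars of the mean with the SD as an error bar at the top of each part. The Pfkl part grows from 11.5% to 23.3% and the Pfkfb4 part shrinks from 33.8% to 22.2%. The counts of Eno1 are uncertain, and so are the enolase shares.

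The other 3 genotypes hold different animals and repeat the tissue comparison. In Slc25a1 heterozygous animals 26 of 37 genes passed (8 higher, 18 lower), where 60.4% of all genes did (30.5% higher, 29.9% lower). In Mrpl40 heterozygous animals 25 passed (13 higher, 12 lower), where 60.3% of all genes did (30.8% higher, 29.4% lower). In double heterozygous animals 26 passed (10 higher, 16 lower), where 57.5% of all genes did (28.9% higher, 28.6% lower). Of all 37 genes, 17 (45.9%) passed in the same direction in all 4 genotypes. Over all 21354 genes tested, 4738 passed as higher and 4872 as lower in all 4 genotypes. The share of the 37 genes is close to that of all genes and is not read as particular to them. The 6 higher among the 37 were Hk2, Pfkl, Taldo1, Mpc2, Pdhb and Pdk3. The 11 lower were Pfkp, Pfkfb4, Ldhb, Ldha, Pdk1, Pfkm, Mpc1, Eno2, Slc16a7, Slc2a3 and Pgam1. Of these, Pgam1 is a row of uncertain counting. The log2 fold change of Hk2 over the genotypes ran from 1.05 to 1.18, that of Pfkl from 0.79 to 1.00 and that of Pfkp from -0.88 to -0.75. Of the 13 genes higher in wild type, 6 (46.2%) passed the same way in the other 3 genotypes, against 72.9% of all genes that were higher. The 7 that did not were Gpi1, Aldoa, Slc16a1, Pfkfb3, Dlat, Dld and Pdhx. Of the 14 lower genes 11 (78.6%) did, against 75.7% of all genes that were lower, and Tpi1, G6pdx and Tkt did not.

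Levels of cell type markers differed between the tissues as well. All 9 neuronal markers were below 0 in the wild-type comparison and 7 fell, with a median log2 fold change of -0.34, and their summed level ran from 8231 to 9557 CPM in cortex and from 6143 to 7403 CPM in hippocampus. Of 10 astrocyte markers 5 rose and 1 fell, with summed levels of 3932 to 4471 CPM in cortex and 4596 to 5685 CPM in hippocampus. The summed level of 8 choroid plexus markers ran from 3.59 to 8.40 CPM in wild-type cortex and from 22.9 to 33.0 CPM in hippocampus, without overlap, and of the 6 tested 2 rose. That of 5 thalamus markers ran from 113 to 132 CPM and from 71.9 to 99.2 CPM, where 3 rose and 1 fell. None of these markers was at 0 in every library of a group. The part of cell makeup in the tissue differences of the 37 genes was not tested.

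Other genes of the same metabolism, taken as whole pathway lists, also went in both directions in the wild-type tissue comparison. Of 29 tested genes among other glycolytic and gluconeogenic enzymes and sugar or lactate transporters, 7 rose and 14 fell. Hkdc1, a relative of the hexokinases, averaged 30.4 CPM in cortex and 4.91 CPM in hippocampus (log2 fold change -2.65 ± 0.11). Pgam2, the muscle-type phosphoglycerate mutase, rose (1.55 ± 0.10). Of 15 glycogen genes 6 rose and 4 fell. Pygb (brain glycogen phosphorylase) had a log2 fold change of 0.71 ± 0.04 and Pygm (the muscle form) -0.72 ± 0.07. Of 14 genes around the pentose phosphate pathway and NADPH 7 rose and 3 fell, led by Txnrd1 (thioredoxin reductase, 0.42 ± 0.04) and Rpe (ribulose-phosphate epimerase, 0.35 ± 0.04). Of 8 regulators of pyruvate dehydrogenase and lipoylation genes 1 rose and 3 fell. Pdp1, the phosphatase that reactivates pyruvate dehydrogenase, averaged 228 ± 29.9 CPM in cortex (SD, n = 9) and 76.7 ± 7.6 CPM in hippocampus (SD, n = 8), a log2 fold change of -1.54 ± 0.07 (adjusted p = 1.26e-18). Of 20 hypoxia-responsive genes 6 rose and 9 fell, with Ddit4 at 1.22 ± 0.05 and Mxi1 at -0.59 ± 0.04. Of 10 glucocorticoid-responsive genes 4 rose and 4 fell, with Fkbp5 at 1.64 ± 0.07 and Cdkn1a at -2.03 ± 0.15.

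The second set of comparisons asked how each heterozygous genotype and their combination differ from wild type. The title of the series names genetic interaction between the genes as its subject. None of the 37 genes passed edgeR's test in any of the 6 comparisons within cortex, nor under DESeq2. In cortex the share of all 20394 genes called was 0% for Slc25a1 heterozygous against wild type, 0.0294% for Mrpl40 heterozygous and 0.0686% for double heterozygous. At an unadjusted p below 0.05 stood 0, 0 and 7 of the 37 genes, where 3.17%, 6.94% and 10.9% of all genes did. The median log2 fold changes of the 37 genes were -0.0048, 0.02 and 0.02.

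The smallest p-values in cortex against wild type were those of double heterozygous animals, and none passed. Dld ran from 121 to 140 CPM (median 126) in wild type and from 133 to 147 CPM (median 141) in double heterozygous libraries. The groups overlapped, and the log2 fold change was 0.12 ± 0.04 (95% interval 0.04 to 0.19, adjusted p = 0.226). Slc16a7 ran from 36.7 to 45.0 CPM (median 41.7) and from 40.2 to 49.9 CPM (median 43.6) (log2 fold change 0.14 ± 0.05, adjusted p = 0.257). Pdhx ran from 42.4 to 46.5 CPM (median 44.2) and from 43.1 to 49.4 CPM (median 48.7) (log2 fold change 0.10 ± 0.04, adjusted p = 0.262). For Mrpl40 heterozygous cortex the 3 genes with the smallest p were Hk1, Pgam1 and Pdk1. Hk1 had a median of 474 CPM (457 to 530) against 456 CPM (422 to 506) in wild type, a log2 fold change of 0.08 ± 0.04. Pgam1 had medians of 309 CPM (289 to 322) and 297 CPM (274 to 311), a difference of 0.06 ± 0.03, and Pdk1 76.0 CPM (71.6 to 88.8) and 82.7 CPM (68.2 to 86.9), a difference of -0.07 ± 0.04. For Slc25a1 heterozygous cortex they were Slc16a1, Tpi1 and Mpc1. Slc16a1 had medians of 28.8 CPM (26.8 to 33.5) and 27.8 CPM (26.3 to 29.4) in wild type, Tpi1 492 CPM (452 to 544) and 507 CPM (477 to 552), and Mpc1 32.3 CPM (31.3 to 37.5) and 34.4 CPM (32.1 to 40.0). Their log2 fold changes were 0.08 ± 0.05, -0.05 ± 0.04 and -0.08 ± 0.06. All these groups overlapped. Markers of other cells were examined in the same cortex comparisons, for which the share of all genes below 0 is not given here. In double heterozygous cortex 9 of 10 microglia markers were below 0 (median -0.13), 7 had an unadjusted p below 0.05 and 1 fell (adjusted p = 0.0262), with summed levels of 331 to 380 CPM against 355 to 440 CPM in wild type. There all 10 astrocyte markers were below 0 (median -0.08, none past the test), with summed levels of 3824 to 4370 CPM against 3932 to 4471 CPM, and the choroid plexus sum was 6.71 to 11.3 CPM against 3.59 to 8.40 CPM. In Mrpl40 heterozygous cortex all 10 microglia markers were below 0 (median -0.10), and none passed. Their part in the values of the 37 genes was not tested.

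Against the single heterozygotes, the share of all cortex genes called for double heterozygous animals was 0.0588% (against Slc25a1 heterozygous) and 0.0049% (against Mrpl40 heterozygous), with 0 of the 37 called in each. At an unadjusted p below 0.05 stood 8 and 4 of them, against 9.92% and 6.94% of all genes. Against Slc25a1 heterozygous, Pgam1 had medians of 313 CPM (298 to 323) and 297 CPM (263 to 312), a log2 fold change of 0.10 ± 0.04. Slc16a7 had 43.6 CPM and 40.3 CPM (37.0 to 46.5), a difference of 0.13 ± 0.05, and Pfkfb4 19.9 CPM (17.8 to 24.9) and 22.7 CPM (18.5 to 23.9), a difference of -0.15 ± 0.06. Against Mrpl40 heterozygous, Mpc1 had 32.1 CPM (28.2 to 39.2) and 35.6 CPM (33.0 to 45.2), a difference of -0.18 ± 0.07. Pdk1 had 83.6 CPM (80.6 to 87.3) and 76.0 CPM (0.12 ± 0.05), and Pdk4 11.9 CPM (10.1 to 14.9) and 13.8 CPM (12.7 to 15.4), a difference of -0.20 ± 0.09. The interaction, which is the double heterozygous difference beyond the sum of both single differences on the log2 scale, called 0 of the 37 and 0% of all genes, with 1 of the 37 and 5.35% of all genes at an unadjusted p below 0.05. Pdk1 had the smallest p, with an interaction of 0.15 ± 0.07 (adjusted p = 0.884), followed by Gapdh (-0.25 ± 0.13) and Pdk4 (-0.20 ± 0.12).

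**Figure D5:**
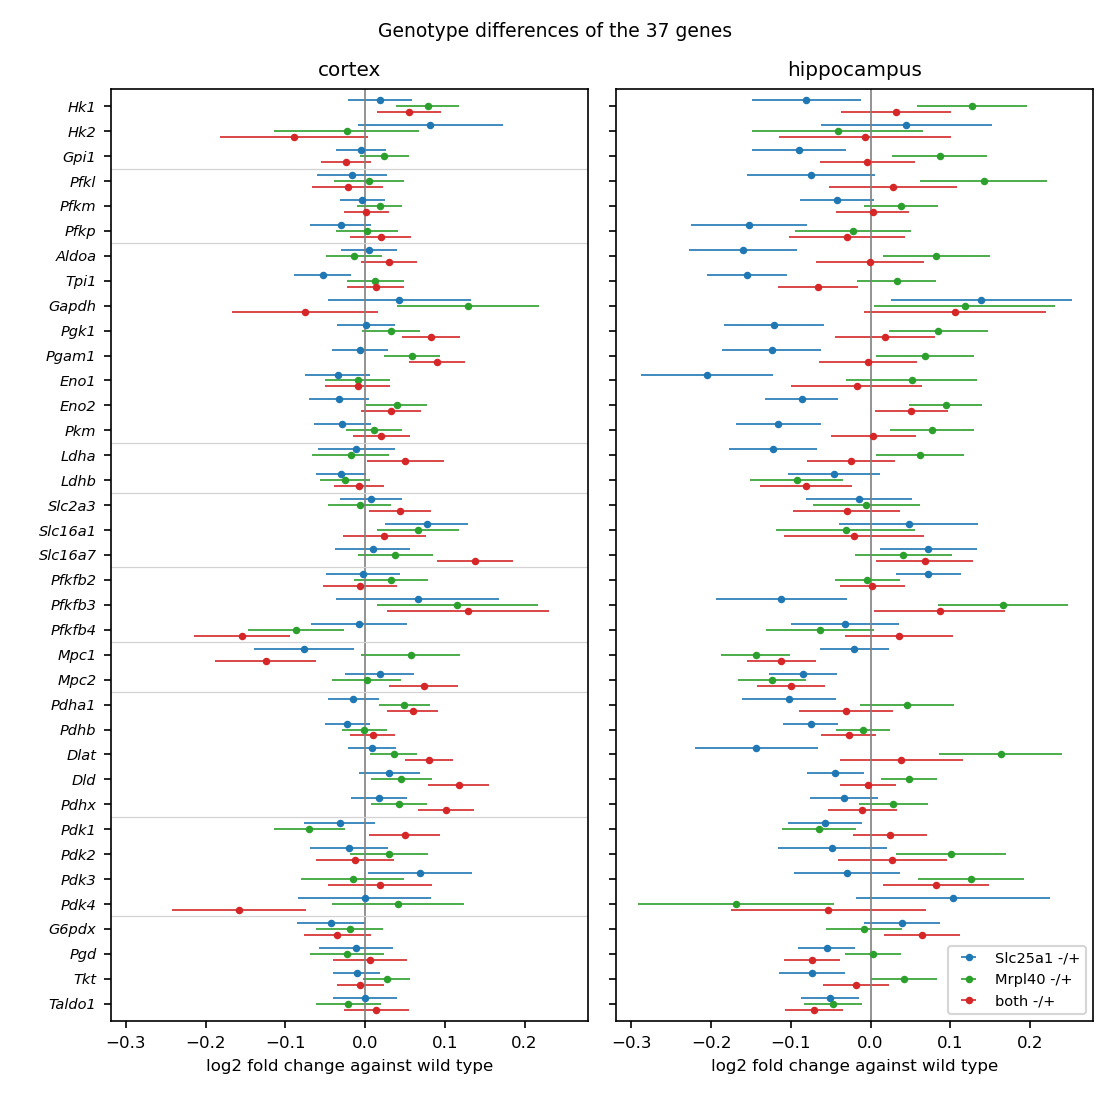
Log2 fold change against wild type of the 37 genes in cortex (left) and hippocampus (right), with the standard error as a bar and colours for the 3 heterozygous genotypes. No point passed the test. In cortex the points lie close to 0, and in hippocampus the Slc25a1 heterozygous points of 30 of 37 genes lie below 0.

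In hippocampus too, none of the 37 genes passed edgeR's test or DESeq2 in any of 6 comparisons. The share of all 20162 genes called was 0% for Slc25a1 heterozygous against wild type, 0.00496% for Mrpl40 heterozygous and 0.00992% for double heterozygous. At an unadjusted p below 0.05 stood 7, 4 and 3 of the 37 genes, against 7.77%, 8.19% and 5.28% of all genes. In Slc25a1 heterozygous animals 30 of 37 log2 fold changes were below 0, against 48.1% of all genes, and their median was -0.06. Both groups hold libraries whose Slc25a1 level went against the label. The lowest wild-type library stood at 11.2 CPM and the highest Slc25a1 heterozygous one at 24.0 CPM. The shift is therefore one between labels, and the count below 0 without the 6 animals is not given here. Tpi1 had the smallest p. Its 8 wild-type libraries lay between 448 and 490 CPM (median 468) and its 7 Slc25a1 heterozygous libraries between 398 and 441 CPM (median 421). These groups did not overlap, which held for 0.164% of all genes, but the log2 fold change of -0.15 ± 0.05 (95% interval -0.25 to -0.06) had an adjusted p of 0.5. Eno1 had medians of 236 CPM (213 to 269) against 266 CPM (236 to 307) in wild type, a difference of -0.21 ± 0.08. Aldoa had 1298 CPM (1140 to 1350) against 1433 CPM (1215 to 1506), a difference of -0.16 ± 0.07. In the same comparison 8 of 9 neuronal markers were below 0 (median -0.15) and 9 of 10 astrocyte markers above 0 (median 0.08). The summed neuronal level was 5033 to 6199 CPM against 6143 to 7403 CPM in wild type, and the summed level of 5 cerebellar markers reached 446 CPM in 1 Slc25a1 heterozygous library (animal 12) against at most 82.7 CPM in wild type. Their part in the shift was not tested. Without the 4 hippocampus libraries that stood apart, 31 of 37 were below 0, the median was -0.08, 15 had an unadjusted p below 0.05 and again 0 passed (smallest adjusted p = 0.167). The shares of all genes below 0 and at an unadjusted p below 0.05 were not counted in that fit. The counts of 31 and 15 therefore have no background there.

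Mrpl40 heterozygous hippocampus showed its smallest p-values at the pyruvate carrier. Mpc1 ran from 24.4 to 27.5 CPM (median 26.3), against 27.0 to 32.0 CPM (median 28.5) in wild type. The wild-type library at 32.0 CPM, where the next stood at 29.2 CPM, was that of animal 8. It is 1 of the 4 hippocampus libraries that stood apart by their markers. The highest heterozygous library overlapped with the 2 lowest wild-type libraries, and the log2 fold change was -0.14 ± 0.04 (95% interval -0.23 to -0.06, adjusted p = 0.587). Mpc2 ran from 59.3 to 65.7 CPM (median 61.2), against 60.5 to 75.3 CPM (median 66.4), a difference of -0.12 ± 0.04 (adjusted p = 0.587). Dlat followed with a median of 128 CPM (115 to 187) against 123 CPM (108 to 137), a difference of 0.16 ± 0.08. That difference includes 1 library (animal 22) at 187 CPM where the next stood at 146 CPM, and this library too is 1 of the 4. The differences of Mpc1, Mpc2 and Dlat without the 4 libraries are not given here. Double heterozygous hippocampus gave the same 2 carrier genes first. Mpc1 ran from 25.2 to 28.5 CPM (median 26.0; -0.11 ± 0.04) and Mpc2 from 59.7 to 66.5 CPM (median 62.8; -0.10 ± 0.04), both with an adjusted p of 0.906. Pgd had a median of 30.8 CPM (29.1 to 33.0) against 32.4 CPM (31.7 to 35.3), a difference of -0.07 ± 0.04. Both comparisons use the same wild-type libraries.

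Double against single heterozygous hippocampus called 0 of the 37 and 0% of all genes for each single genotype. At an unadjusted p below 0.05 stood 8 of the 37 against Slc25a1 heterozygous (9.04% of all genes) and 1 against Mrpl40 heterozygous (4.68%). Against Slc25a1 heterozygous, Eno2 had medians of 745 CPM (708 to 861) and 692 CPM (627 to 729), a log2 fold change of 0.14 ± 0.05 (adjusted p = 0.425). Pfkfb3 had 42.6 CPM (35.0 to 47.7) and 37.5 CPM (30.5 to 40.0), a difference of 0.20 ± 0.08, and Aldoa 1379 CPM (1219 to 1666) and 1298 CPM, a difference of 0.16 ± 0.07. All 3 pairs of groups overlapped. Against Mrpl40 heterozygous, Pgd had 30.8 CPM and 32.9 CPM (30.8 to 34.4), a difference of -0.08 ± 0.04. Tpi1 had 444 CPM (395 to 500) and 467 CPM (435 to 572), a difference of -0.10 ± 0.05, and Pdk1 60.9 CPM (56.0 to 65.5) and 57.4 CPM (54.2 to 61.6), a difference of 0.09 ± 0.05. The hippocampal interaction called 0 of the 37 and 0% of all genes (1 of 37 and 3.39% at an unadjusted p below 0.05). Pdk1 again had the smallest p (0.15 ± 0.07, adjusted p = 0.999), then Mpc2 (0.11 ± 0.06) and Pfkp (0.15 ± 0.10). Without the 4 libraries that stood apart, again 0 passed in these comparisons. The median log2 fold change then was 0.09 for double against Slc25a1 heterozygous, with 18 of 37 at an unadjusted p below 0.05, and 0.09 for the interaction (0.03 with all libraries), with 8 of 37. The share of all genes at an unadjusted p below 0.05 was not counted without these libraries. The counts of 18 and 8 therefore have no background and are not read as particular to the 37 genes.

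Whether a genotype's difference itself differed between the tissues was tested in 1 fit over both. None of the 37 genes passed for the Slc25a1, Mrpl40 or double heterozygous difference in edgeR or DESeq2, where 0%, 0% and 0.0234% of all genes did. At an unadjusted p below 0.05 stood 2, 1 and 4 of them, against 6%, 5.83% and 5.03% of all genes. The smallest p-values were those of Aldoa (-0.18 ± 0.08), Dlat (-0.16 ± 0.08) and Pgam1 (-0.13 ± 0.07) for Slc25a1 heterozygous animals. For Mrpl40 heterozygous animals they were those of Mpc1 (-0.20 ± 0.07), Pdk3 (0.15 ± 0.08) and Mpc2 (-0.12 ± 0.07). For double heterozygous animals they were those of Dld (-0.13 ± 0.05), Mpc2 (-0.17 ± 0.07) and Pfkfb4 (0.20 ± 0.09). None of the other lists of the same metabolism had a gene past the test in any genotype comparison. On simulated counts of known change the test recovered 64% of genes changed 1.2-fold and 96% of those changed 1.5-fold in the cortex comparison of double heterozygous with wild type, and 46% and 92% in that of hippocampus. The simulation held 200 genes changed up to 3-fold, with every label correct. The changed genes were drawn only from those above a threshold of mean count. The simulated libraries shared nothing by animal or replicate number. The 2 real comparisons called 14 and 2 genes, where the adjusted threshold is stricter, so these shares may overstate the recovery. Slc25a1 itself did not pass in Slc25a1 heterozygous against wild-type cortex (means 15.2 and 21.8 CPM).

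Finally, it was asked whether animals that were high for a gene in cortex were also high in hippocampus. After removal of the genotype means, the correlation over 29 animals had a median of 0.08 across the 37 genes (lowest -0.57, highest 0.40), against 0.10 across all 21351 genes. No gene of the 37 passed over all genes, where 1.09% did. The 5 highest correlations were those of Pdk2, Eno2, Pdk3, Pdk1 and Slc16a1. For Pdk2 Pearson's r was 0.40 and Spearman's rho 0.41 (permutation p = 0.0447 and 0.0333, adjusted 0.403 and 0.368), and r was 0.30 without the 2 animals farthest from the median. For Eno2 r was 0.38 and rho 0.45 (permutation p = 0.0454 and 0.0219, adjusted 0.404 and 0.314), with r at 0.36 without 2 animals. Pdk3 had an r of 0.37, Pdk1 0.31 and Slc16a1 0.31. At the other end stood Pfkp, named after its value was seen, with an r of -0.57 and a rho of -0.61 (permutation p = 0.00395 and 0.00131, adjusted 0.139 and 0.0923), and an r of -0.52 without 2 animals.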

How the data were processed

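Poly(A) RNA libraries, made with a directional kit per the labels' protocols, were counted by the authors, and the deposited table holds raw counts per gene for 59 libraries. The submitters' processing notes name FastQC, HISAT2, featureCounts, DESeq2 and the builds mm39 and GRCm39. The sources used here do not give versions or the strand setting. Library totals ran from 21443017 to 32120906 counts, with a median of 27161340. Groups and animal numbers came from the labels. A reference of the authors' build was not used here, so exon lengths and shared words came from GENCODE vM21 (GRCm38), matched by gene ID, and promoters from RefSeq.

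Counts were tested with edgeR 4.0.16 in R 4.3.3: filterByExpr, TMM scaling, robust quasi-likelihood fits and Benjamini-Hochberg adjustment over all genes, with a threshold of 0.05. Each tissue was fitted with its 4 genotypes. Tissue comparisons used the 58 libraries of the 29 animals with both tissues, with the animal as a block, since both tissues come from the same animal. The median correlation of deviations was 0.109 over these 29 pairs and -0.00987 between tissues of different animals. Standard errors (SE) of log2 fold changes are the fold change over the root of F. Correlations used log2 CPM with a prior count of 2 and 100000 permutations. Alternatives were no filter, DESeq2 1.42.0 (its size factors and its Wald test), a replicate block, fits of only the groups compared, other length scalings and, added after seeing the data, leaving out 6 animals or 4 libraries and offsets for length and GC. The fits were tested on simulated data. The genes named in each comparison were the 10 with the largest absolute log2 fold change among those past the test between tissues and the 3 with the smallest p between genotypes, and for correlations the 5 highest. The 37 genes and all lists were chosen with earlier results of these data known. Animals of a group are separate animals per the labels. The values of 1 gene on a pathway list are not reported here.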

Additional observations from a re-analysis of the deposited data

Results flagged for a closer look

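In 9 of 72 combinations of a named gene and a group, 1 library stood farther from the rest than Dixon's test allows at its 95% level, and chance alone gives about 1 in 20. The library of animal 8 holds 2 of the 4 in hippocampus: in wild type Mpc1 was 32.0 CPM there (next 29.2, lowest 27.0) and Pfkp 254 CPM (next 225, lowest 203). Dlat was 187 CPM in the Mrpl40 heterozygous hippocampus library of animal 22 (next 146, lowest 115). Pfkm was 452 CPM in the wild-type hippocampus library of animal 5 (next 422, lowest 403) and 547 CPM in the wild-type cortex library of animal 3 (next 524, lowest 505). Hk1 was 506 CPM in the wild-type cortex library of animal 2 (next 462, lowest 422), and Pdk1 was 88.8 CPM in the Mrpl40 heterozygous cortex library of animal 18 (next 77.0, lowest 71.6). The lowest library stood apart for Pdhx in double heterozygous cortex, at 43.1 CPM in animal 25 (next 47.6, highest 49.4), and for Pfkfb4 in Slc25a1 heterozygous cortex, at 18.5 CPM in animal 10 (next 22.4, highest 23.9). What set these libraries apart was not tested.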

How the results depend on the processing

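The number of the 37 genes called stayed at 0 in all 12 genotype comparisons and all 3 tissue differences of a genotype effect, under every alternative run, and in the tissue comparisons within 1.5 times the reported count. In wild type it was 27, with a range of 22 (without the 6 animals whose Slc25a1 level went against the label) to 28 (without the 4 hippocampus libraries). Of those 6 animals, 2 were labelled wild type, so that fit held fewer wild-type pairs. The share of all genes called under these alternatives is not given here, so the range is not read as particular to the 37 genes. Of the 27 calls, those of Aldoa, Dld, G6pdx, Gpi1, Pgam1, Slc2a3, Tkt and Tpi1 were lost under at least 1 alternative, those of Pdha1, Pdk2 and Pfkfb2 were gained, and none reversed. Replicate numbers were taken as names only and not used to pair animals across genotypes. In cortex, libraries of the same number and different genotype had a median correlation of deviations of 0.126 (from -0.411 to 0.537). For different numbers it was -0.0277. In hippocampus the medians were 0.0432 and 0.0109. What cortex libraries of the same number share was not tested. With the number as a replicate block 0 of the 37 genes were called in all 12 genotype comparisons, and with no replicate block for the animal 27 were called between wild-type tissues. Isozyme shares in wild type depended on the length used, and those of Eno2 also rest on the uncertain counts of Eno1. Without length scaling the shares in cortex and hippocampus were 0.909% and 2.01% for Hk2, 15.1% and 30.9% for Pfkl (Pfkp 35.6% and 23.9%), 74.95% and 72.9% for Eno2, 63.65% and 59.9% for Ldhb, and 40.3% and 47.2% for Slc16a1. With the longest transcript they were 0.707% and 1.56% for Hk2, 16.1% and 31.0% for Pfkl (Pfkp 16.2% and 10.3%), 68.5% and 66.1% for Eno2, 70.9% and 67.5% for Ldhb, and for Slc16a1 in cortex 62.6%. The correlations between tissues of Pdk2, Eno2, Pdk3, Pdk1, Slc16a1 and Pfkp kept their sign with Spearman's rho, without 2 animals and with DESeq2 size factors. Those of Tkt, Pgd, Pgam1, Pdhb, Pkm and Gapdh, which lay between -0.12 and 0.08, changed sign under at least 1 of these. Simulated interactions of 1.2-fold were recovered in 38% of genes in cortex and 16% in hippocampus, so small interactions were mostly not detectable.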
